A study of Mus musculus with 6 samples.

Results

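The alpha and beta tubulin isotypes measured in Ba/F3 cells were 10 genes, 5 alpha (Tuba1a, Tuba1b, Tuba1c, Tuba4a and Tuba8) and 5 beta (Tubb2a, Tubb3, Tubb4b, Tubb5 and Tubb6), and every probe set annotated to one of them was taken, 23 of the 45101 on the array. The genes were chosen on the signals of all 6 arrays in both groups, so their differences between the groups are a description: no p-value is given for a single tubulin, and counts past a threshold stand beside the share of all genes and support nothing. Of the 23 probe sets, 19 carried the symbol of 1 gene and covered 8 of the 10 genes. The other 4 were annotated to a tubulin together with a second gene, and Tuba1b and Tuba1c were represented by such shared probe sets alone, so no value is attributed to either gene.

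Ba/F3 is an interleukin 3 dependent mouse pro-B cell line. The group called NCOR1-LYN (3 arrays) was made from Ba/F3 cells with a retroviral Tet-on Advanced construct, in which doxycycline had switched on NCOR1-LYN, a fusion of parts of a nuclear receptor corepressor and of a SRC family tyrosine kinase. The control group (3 arrays) was uninduced Ba/F3 cells, labelled DOX(-) and described as mock, and the labels do not spell out whether they carried the construct. All NCOR1-LYN cultures and no control culture had received doxycycline, so the drug and the fusion cannot be told apart, and the labels do not say whether the line was 1 clone. The labels speak of triplicate cultures and no more, so the spread behind SDs and p-values may be technical.

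RNA was hybridised to 1 array per sample, and precision is limited by there being 3 arrays in each group. Median signals ran from 54.8 to 61.9, and 50.6 to 52.7% of the values on each array were under 64. Of 7 B lineage markers on the array, 4 had mean signals below 64 and the brightest, Cd79b, averaged 436 ± 24.9 in NCOR1-LYN and 471 ± 93 in control cells (SD, n = 3 each), so that the labelled pro-B identity rests on few of them here. The summed signals of the B lineage markers ran from 637 to 699 in NCOR1-LYN and from 610.0 to 872 in control cells. The replicate 1 arrays of both groups stood apart from the other 4 arrays at many probe sets. Both lay below the other 4 at 19.3% and above them at 28.4% of the 20967 probe sets tested.

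Alpha and beta tubulin pair into the heterodimer from which microtubules, the tracks of transport and the fibres of the mitotic spindle, are built. The isotypes are products of separate genes with very similar sequence, which differ most in the acidic C-terminal tail that carries many of the modifications of microtubules. Cells also adjust tubulin messages to the pool of free dimer: the factor TTC5 recognises the first residues of nascent tubulin and leads the message to decay. In blood cells, beta tubulin of the Tubb5 type is widespread, the Tubb1 product is typical of platelets, and that of Tubb3 of neurons.

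Tuba8 encodes a divergent alpha tubulin that lacks the lysine acetylated in other alpha isotypes and was first described from heart, skeletal muscle and testis in human. It was lower with NCOR1-LYN in both of its probe sets, at about the same fraction of control in each. The brighter probe set (1419518_at) had signals of 3936, 4272 and 4556 in NCOR1-LYN replicates 1, 2 and 3, against 8260.1, 7623 and 7800.4 in control replicates 1, 2 and 3. All 3 NCOR1-LYN arrays lay below all 3 control arrays, and the highest of them was well short of the lowest control. The means were 4254 ± 310.5 and 7894 ± 329 (SD, n = 3 each), so that NCOR1-LYN cells held 53.9% of the control signal. The dimmer probe set (1446771_at) had signals of 673, 589.6 and 673 in NCOR1-LYN replicates 1, 2 and 3, against 1369, 1415 and 1422 in control replicates 1, 2 and 3. The groups again did not overlap, and the NCOR1-LYN mean of 645 ± 48.2 was 46% of the control mean of 1402 ± 28.6 (SD, n = 3 each).

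On the scale of log2(signal + 64), used for all log2 differences here, Tuba8 differed by −0.88 ± 0.11 in the brighter and −1.05 ± 0.13 in the dimmer probe set (SE in limma). The brighter probe set had differences of −1.06, −0.83 and −0.77 in pairs 1, 2 and 3 of same-numbered arrays, and the dimmer of −0.96, −1.18 and −1.01. Averaged over both groups, the replicate 1 arrays differed from the other 4 by −0.03 (brighter) and 0.02 (dimmer) on the log2 scale. In the brighter probe set this mean hides opposite shifts. NCOR1-LYN 1 was its lowest array and control 1 its highest, so pair 1 differed most, whereas in the dimmer it differed least. Over the 10916 genes tested, each represented by its brightest probe set, Tuba8 ranked 58th from the lowest difference and 100th by absolute size. Agreement of the 2 probe sets does not bear on the spread between cultures, because they were hybridised with the same RNA.

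**Figure D1:**
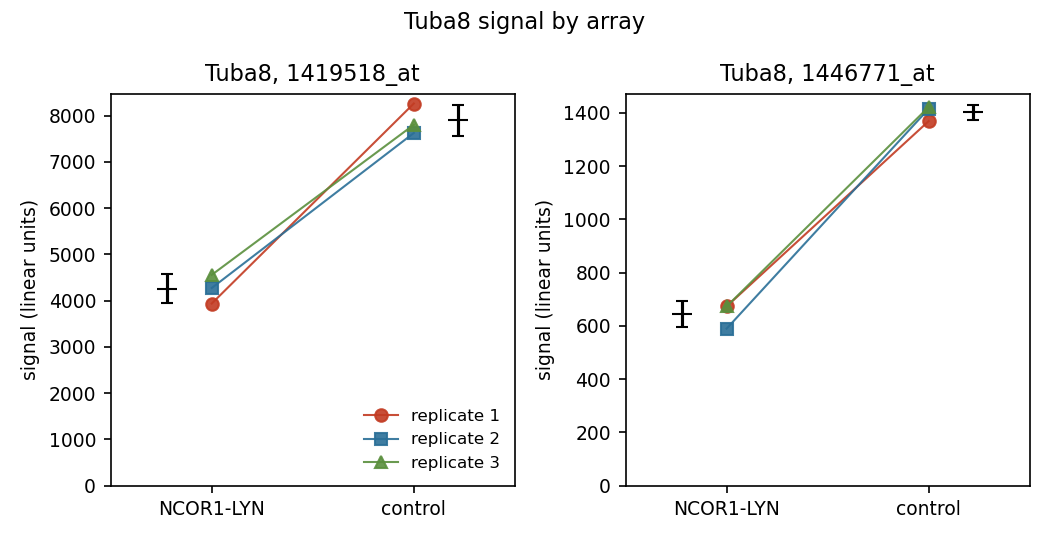
Signals of the 2 Tuba8 probe sets on a linear axis from 0, NCOR1-LYN on the left and control on the right. Points are single arrays joined by replicate number, and bars are means ± SD (n = 3 each). All NCOR1-LYN points lie below all control points, between 3936 and 4556 on the left panel and between 589.6 and 673 on the right.

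The 250 bases before the annotated start are shown for Tuba8, where the groups were apart in both probe sets. Tuba1a is shown for its low replicate 1 arrays and Tubb5 as a bright isotype whose groups overlapped. Sequences are from RefSeq (GRCm38.p6), read 5′ to 3′ on the strand of the gene, with capitals for matches on either strand to 4 motifs: TATAAA (the TATA box), CCAAT (the core bound by NF-Y), GGGCGG (the Sp1 core) and TTCNNNGAA (the STAT core).
Tuba8: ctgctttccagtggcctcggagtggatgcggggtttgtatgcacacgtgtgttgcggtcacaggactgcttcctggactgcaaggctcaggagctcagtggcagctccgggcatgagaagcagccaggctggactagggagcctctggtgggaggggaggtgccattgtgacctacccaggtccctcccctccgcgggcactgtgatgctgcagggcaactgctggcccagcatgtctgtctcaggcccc
Tuba1a: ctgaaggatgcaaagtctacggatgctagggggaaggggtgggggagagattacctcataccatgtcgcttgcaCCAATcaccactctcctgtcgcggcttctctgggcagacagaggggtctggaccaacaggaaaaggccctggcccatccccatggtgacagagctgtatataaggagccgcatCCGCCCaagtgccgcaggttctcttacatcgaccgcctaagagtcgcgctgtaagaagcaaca
Tubb5: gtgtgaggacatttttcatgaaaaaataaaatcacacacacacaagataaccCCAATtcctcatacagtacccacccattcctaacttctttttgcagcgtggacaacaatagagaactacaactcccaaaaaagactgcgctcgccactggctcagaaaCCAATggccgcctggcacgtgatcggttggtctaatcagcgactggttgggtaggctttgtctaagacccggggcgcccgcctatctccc

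The Tuba8 window lies at chr6:121210484-121210733 (plus strand), that of Tuba1a at chr15:98953502-98953751 and that of Tubb5 at chr17:35838302-35838551 (both minus strand). The Tuba8 window held 0 matches to the 4 motifs. Tuba1a had CCAAT 176 bases and GGGCGG 63 bases before the start, and Tubb5 had CCAAT at 198 and 90 bases. Among 32851 promoter windows of this length, 12.4% held TATAAA, 33.8% CCAAT, 32.7% GGGCGG and 7.02% TTCNNNGAA. Promoter windows were matched for 9 of the 10 tubulin genes. These matches describe letters in the window and say nothing of binding.

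Of the 17 probe sets of the tubulins that were tested, the 2 of Tuba8 had NCOR1-LYN arrays all below the controls, as had 5.24% of all probe sets tested, and in the other 15 the groups overlapped. In limma without a block, 0 of the 17 probe sets (0.0334% of all) and 0 of the 8 genes tested (0.0824% of all) passed an adjusted p of 0.05. At an unadjusted p of 0.05 in the same fit there were 2 probe sets (965 of all 20967) and 1 gene (519 of all 10916). With the replicate number as a block, 2 of 17 probe sets (0.725% of all) and 1 of 8 genes (0.824% of all) passed, all of them Tuba8 and lower. As these arrays chose the members, all counts in this paragraph, also where a gene is named, are a description and no test of that gene. Without both replicate 1 arrays, 2 of 8 genes passed (6.82% of all), Tuba8 with −0.80 and Tubb2a with 0.45. With log2 values averaged over the probe sets of a gene and no block, 1 of 8 passed, Tuba8 (0.0641% of all). Apart from Tuba8, the differences of the 15 other probe sets tested ran from −0.38 to 0.28. The median over the 8 genes was −0.01, as over all genes, with 4 genes below and 4 above 0.

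**Figure D2:**
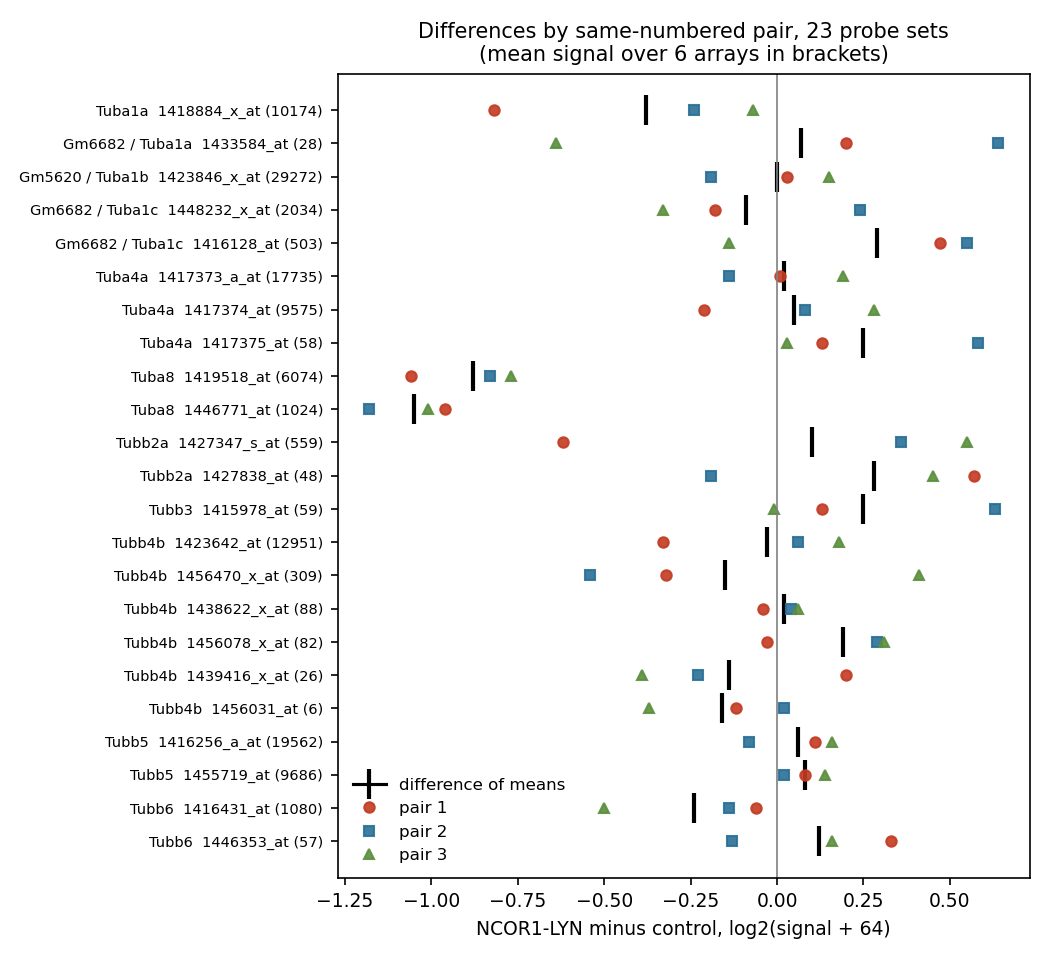
Log2 differences (NCOR1-LYN minus control) for all 23 probe sets, with symbols for the 3 same-numbered pairs and a vertical bar for the difference of the group means. Both Tuba8 rows lie near −1 in every pair, while pairs of most other rows fall on both sides of 0.

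Among the other alpha isotypes, Tuba4a, whose product is made without the C-terminal tyrosine found on most alpha tubulins, was bright and similar in both groups. Its brightest probe set (1417373_a_at) had 18651, 16261 and 18654 in NCOR1-LYN replicates 1, 2 and 3, against 18545, 17916 and 16383 in control replicates 1, 2 and 3. The ranges overlapped almost wholly, with a log2 difference of 0.02 ± 0.12 (SE in limma). A second Tuba4a probe set (1417374_at) had a difference of 0.05 ± 0.13, and the dimmest (1417375_at) lay near background, with means of 67.6 ± 12 in NCOR1-LYN and 49.4 ± 30.7 in control cells (SD, n = 3 each).

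Tuba1a encodes the main alpha tubulin of developing neurons, and its signals went with the replicate number. The probe set (1418884_x_at) had 4379, 10710.3 and 12426 in NCOR1-LYN replicates 1, 2 and 3, against 7800.4, 12644 and 13083 in control replicates 1, 2 and 3. Both replicate 1 arrays were the lowest of the 6, and differed from the other 4 by −1.05 on the log2 scale on average. Each NCOR1-LYN array was below its same-numbered control, with pair differences of −0.82, −0.24 and −0.07. Most of the mean difference of −0.38 came from pair 1. Its SE in limma was 0.40 without the block and 0.15 with it, and Tuba1a was past the threshold in neither fit. The suffix _x_at marks a probe set with probes that can bind other transcripts, and which isotype was read was not tested.

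The same low replicate 1 arrays were seen in both probe sets annotated jointly to Tuba1c and the predicted gene Gm6682. The brighter (1448232_x_at) had 1155, 2705 and 2095 in NCOR1-LYN replicates 1, 2 and 3, against 1319, 2283 and 2644 in control replicates 1, 2 and 3. The dimmer (1416128_at) had 317, 799.8 and 552 in NCOR1-LYN cells, against 211, 527 and 614 in control cells, in the same order. In neither did the groups separate, with log2 differences of −0.09 and 0.29. In all, 4 of the 23 probe sets had both replicate 1 arrays below the other 4 arrays, the fourth being a dim Tubb4b probe set. Of the 17 tested 2 did so (19.3% of all probe sets tested), and 2 had both above (28.4% of all), those of Tubb3 and Tubb6. Low replicate 1 arrays were thus not particular to the tubulins.

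The probe set annotated to Tuba1b, the general alpha isotype of dividing cells, and to Gm5620 (1423846_x_at) gave the brightest signals of the 23. It had 30927, 26208 and 30656 in NCOR1-LYN replicates 1, 2 and 3, against 30382, 29874 and 27584 in control replicates 1, 2 and 3, so the NCOR1-LYN mean was 99.9% of the control mean. A probe set shared by Tuba1a and Gm6682 (1433584_at) lay below 64 on every array. Signals of different probe sets depend on their probes, so their order does not rank the isotypes.

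**Figure D3:**
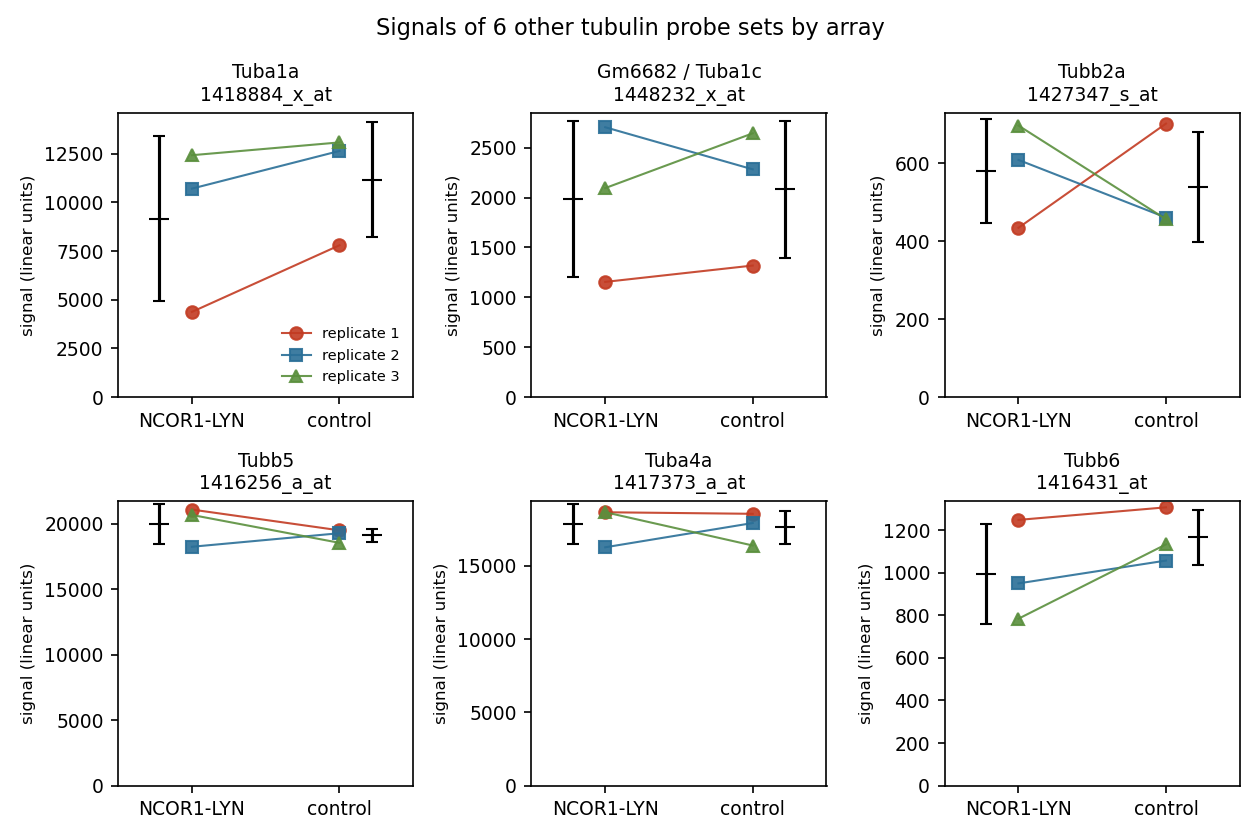
Signals of 6 further tubulin probe sets on linear axes from 0, NCOR1-LYN left and control right, points joined by replicate number, bars means ± SD (n = 3 each). Replicate 1 is low in both groups for Tuba1a and for the probe set shared by Gm6682 and Tuba1c, the Tubb2a lines cross, and Tubb5 and Tuba4a stay level.

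Of the beta isotypes, Tubb5, the common beta tubulin of dividing cells, was bright and similar in both groups. One probe set (1416256_a_at) had 21095, 18252 and 20682 in NCOR1-LYN replicates 1, 2 and 3, against 19507, 19287 and 18552 in control replicates 1, 2 and 3. The other (1455719_at) had 10178, 9565 and 10140.1, against 9599.9, 9405 and 9225. The groups overlapped in both, and the log2 differences were 0.06 ± 0.11 and 0.08 ± 0.10 (SE in limma), a small fraction of the Tuba8 difference.

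Tubb4b, a beta isotype of most tissues and of cilia, was represented by 6 probe sets, 1 of them bright. That probe set (1423642_at) had 12440.3, 12343 and 13517 in NCOR1-LYN replicates 1, 2 and 3, against 15636, 11863 and 11907 in control replicates 1, 2 and 3. Control replicate 1 was the highest of the 6 and the others lay close together, with a log2 difference of −0.03 ± 0.14. The next (1456470_x_at) averaged 292 ± 96.8 in NCOR1-LYN and 327 ± 91.6 in control cells, and the other 4 had means below 100 in both groups. Of the 6, 2 were too dim to be tested.

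Tubb2a, a beta isotype abundant in brain, went in opposite directions in the pairs. Its brighter probe set (1427347_s_at) had 434, 608 and 696 in NCOR1-LYN replicates 1, 2 and 3, against 701, 460.3 and 456 in control replicates 1, 2 and 3. NCOR1-LYN was lower in pair 1 and higher in pairs 2 and 3, with log2 differences of −0.62, 0.36 and 0.55, and the groups overlapped. Its mean difference was 0.10 ± 0.23 (SE in limma without the block). The suffix _s_at marks probes shared by several transcripts, and the second Tubb2a probe set (1427838_at) was at 59.5 ± 26.4 in NCOR1-LYN and 37.2 ± 15.1 in control cells.

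Tubb6, a beta isotype whose excess disturbs microtubule networks, had 1248, 949.8 and 784 in NCOR1-LYN replicates 1, 2 and 3, against 1307, 1057 and 1133 in control replicates 1, 2 and 3 (1416431_at). NCOR1-LYN was the lower in each pair, by log2 differences of −0.06, −0.14 and −0.50, but NCOR1-LYN replicate 1 exceeded control replicates 2 and 3. The mean difference was −0.24, with an SE in limma of 0.19 without the block and 0.12 with it, past the threshold in neither fit. Of all probe sets tested, 16.9% were lower in all 3 pairs. A dim second probe set (1446353_at) had a difference of 0.12 ± 0.20.

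Tubb3, the beta isotype used as a mark of neurons, stayed near background. Its signals were 116, 40.4 and 45.6 in NCOR1-LYN replicates 1, 2 and 3, against 100.1, 3.53 and 46.2 in control replicates 1, 2 and 3. The replicate 1 arrays were the highest in both groups. Of 8 neuron markers, 7 had mean signals below 64, and the summed signals of the list ran from 208 to 278 in NCOR1-LYN and from 261 to 287 in control cells.

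The isotypes outside the list were dim or shared. Tubb1, the platelet beta tubulin, averaged 145 ± 29.9 in NCOR1-LYN and 129.9 ± 30.5 in control cells (SD, n = 3 each), and Tubb4a 68.5 ± 24.8 and 68.8 ± 20.9, while Tubb2b was at 9.59 ± 8.95 and 8.02 ± 8.45. A probe set shared by Tuba3a and Tuba3b (1416311_s_at) had 548, 1347 and 1195 in NCOR1-LYN replicates 1, 2 and 3, against 625, 1044 and 1150.0 in control replicates 1, 2 and 3, again lowest in replicate 1 of both groups.

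Genes that fold, modify or organise tubulin, taken with the isotypes outside the list, gave no call. In 5 lists of such genes and that of the other isotypes, 70 were tested. In limma 0 of them passed the adjusted p of 0.05 without the block (0.0824% of all genes) or with it (0.824% of all genes). At shares so low, 0 calls among 70 does not set these genes apart. At an unadjusted p of 0.05, 0 passed without the block (4.75% of all genes) and 2 with it (11.3% of all genes), and the 70 had a median log2 difference of 0.02. Their differences ran from −0.32 to 0.43. Without overlap between the groups were 3 of the 70, all higher with NCOR1-LYN (5.18% of all genes): Clasp2, which steadies growing microtubule ends, Hdac6, the tubulin deacetylase, and Mzt2, a gamma tubulin ring protein. These 3 were named after their values were seen.

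By role, the 21 genes of tubulin folding, which cover the tubulin cofactors, prefoldin and the ring chaperonin, had 14 positive and 7 negative differences and a median of 0.05. The largest was in the chaperonin subunit gene Cct2, at 10667 ± 1156 in NCOR1-LYN and 9964 ± 2179 in control cells (SD, n = 3 each). The 3 genes of tubulin message decay were all slightly lower in mean, with differences of −0.09 ± 0.12 for Ttc5, −0.17 ± 0.18 for Scaper, which joins TTC5 to the deadenylase, and −0.04 ± 0.12 for its subunit gene Cnot11 (SE in limma). Each of these 3 differences is smaller than its SE.

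Of 12 genes of the gamma, delta and epsilon tubulins and the gamma ring, which seeds microtubules, 6 were above and 6 below 0. Tubgcp5, a ring subunit, had the largest difference, −0.22 ± 0.16. Of 14 tubulin modifying enzymes, 9 were above and 5 below 0, and Atat1, the acetyltransferase of alpha tubulin, had 121, 72.7 and 80 in NCOR1-LYN replicates 1, 2 and 3, against 74.4, 53.5 and 27.9 in control replicates 1, 2 and 3. It was higher in each pair, with overlap between the groups and a difference of 0.43 ± 0.21 (adjusted p = 0.999 in limma). The 18 genes of assembly and severing were 10 above and 8 below 0, with the polymerase gene Ckap5 largest at 0.20 ± 0.16.

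**Figure D4:**
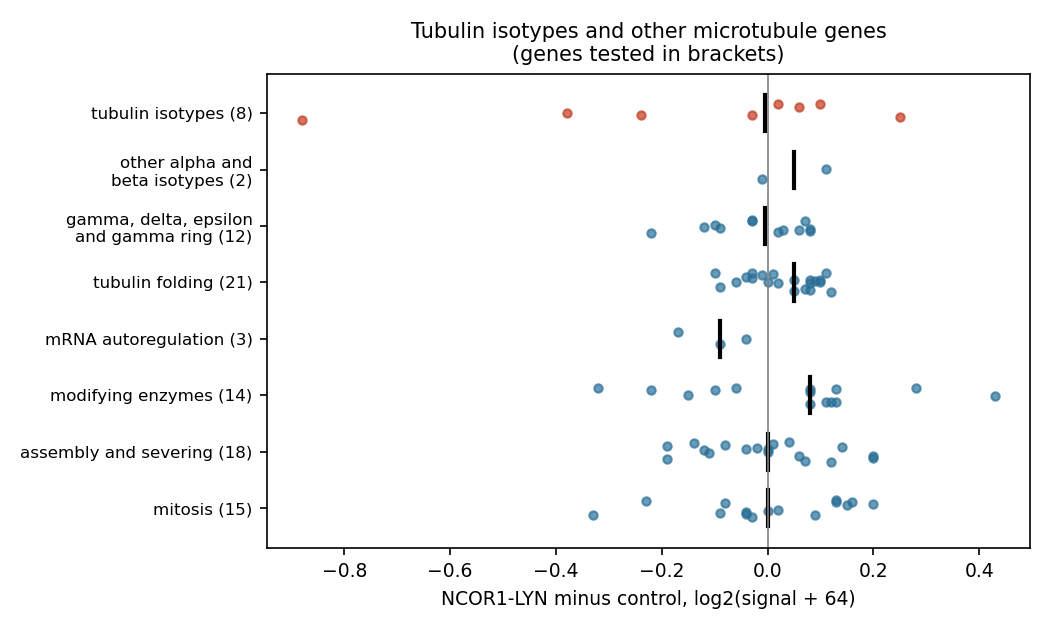
Log2 differences (NCOR1-LYN minus control) by gene, 1 point per gene at its brightest probe set, with the list median as a black bar. The tubulin isotypes in the top row have Tuba8 at −0.88 and the other 7 genes between −0.38 and 0.25, and all genes of the lists under them lie between −0.33 and 0.43.

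Mitotic genes, which rise with the share of dividing cells, had 8 positive and 7 negative differences among 15 tested, a median of 0.00, and medians by pair of 0.20, −0.18 and −0.06. The largest was in the spindle kinesin gene Kif20a, −0.33 ± 0.14 (adjusted p = 0.999 in limma). In limma 0 of the 15 passed the adjusted p of 0.05 without the block (0.0824% of all genes) or with it (0.824% of all genes). At an unadjusted p of 0.05 there were 0 without the block (4.75% of all genes) and 2 with it (11.3% of all genes).

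Some markers of other blood cells also differed in mean between the groups, none past the threshold, and their part in the Tuba8 result was not tested. Both tested platelet markers of 4 on the array were lower in mean: Gp9, a platelet glycoprotein gene, averaged 463 ± 51.9 in NCOR1-LYN and 815 ± 253 in control cells, and Itga2b, the integrin alpha IIb gene, 3147 ± 1676 and 4139.8 ± 1284 (SD, n = 3 each). Gp9 had 467, 512 and 409 in NCOR1-LYN replicates 1, 2 and 3, against 1107, 658 and 679 in control replicates 1, 2 and 3, without overlap. It was lower in each pair, by log2 differences of −1.14, −0.33 and −0.65. Of all probe sets tested, 5.24% had NCOR1-LYN arrays all below the controls and 16.9% were lower in all 3 pairs. The mean log2 differences of Gp9 and Itga2b were −0.71 ± 0.21 and −0.47 ± 0.36 (adjusted p = 0.708 and 0.999 in limma), and Pf4 and Ppbp, which define platelets, had mean signals below 30. The summed platelet signal ran from 2627 to 5556 in NCOR1-LYN and from 4091 to 6749 in control cells. Of 8 myeloid markers 4 were tested, 3 of them higher in mean, and the summed signal ran from 2809.8 to 5494 in NCOR1-LYN and from 1449 to 2466 in control cells. Prtn3, the proteinase 3 gene, was the brightest, at 3618 ± 1638 in NCOR1-LYN and 1195 ± 492 in control cells (SD, n = 3 each), and dominates these sums. It also had the largest difference, 1.49 ± 0.41 (adjusted p = 0.61 in limma), with −0.01, 2.14 and 2.34 in pairs 1, 2 and 3. The groups overlapped in each of the 4 myeloid markers tested. All 7 fibroblast markers and 4 of 5 T cell markers had mean signals below 64. Their largest differences were −0.49 ± 0.25 for Col1a2 and −0.28 ± 0.14 for Cd8a. Cd8a too was without overlap and lower in each pair, by log2 differences of −0.27, −0.23 and −0.34. Col1a2 was lower in each pair with overlap between the groups. In such bulk RNA, fewer cells of a type and less RNA per cell cannot be told apart.

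The genes most like 3 tubulins across the 6 arrays were sought by Pearson's r of log2 values among the genes tested. For Tuba8 they were Btnl9 (0.993), the G protein subunit gene Gnb4 (0.992) and Ebi3 (0.990), a cytokine subunit gene, with log2 differences of −0.96, −1.32 and −0.72. For Tuba1a they were the phosphatase gene Ppp1cc (0.997), Slc25a12 (0.996) and Malsu1 (0.995), whose group differences of −0.13, −0.18 and −0.10 were small. For Tubb3, near background, they were Nacc2 (0.991), Kazn (0.991) and Lysmd1 (0.983). With 6 arrays such values are easily reached: 125 genes had r above 0.9 with Tuba8, 553 with Tuba1a and 190 with Tubb3. Genes this close to Tuba8 must share its split by groups, and those this close to Tuba1a its low replicate 1 arrays. Such likeness follows from how the genes were picked and is no separate result.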

How the data were processed

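The deposited intensities, 1 per probe set on a linear scale, come from MAS5 according to the submitters' processing notes, and its version is not given in the sources used here. MAS5 subtracts mismatch and background signal, so dim probe sets are noisy. The values have a trimmed mean of 500, averaged over the arrays (2% of values trimmed at either end of each). Detection calls were not part of the analysis.

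Of 45101 probe sets, 34945 had exactly 1 symbol in the platform annotation and 932 had several. Signals were used as log2(signal + 64), which understates changes of dim genes. Probe sets, or genes at their brightest probe set, below the 40th percentile of mean log2 value (a signal of about 41.6 or 47) were left out, which left 20967 probe sets and 10916 genes. They were tested with limma 3.58.1 (R 4.3.3; lmFit, then eBayes with trend, two-sided, on 6 arrays, Benjamini-Hochberg adjustment over all genes or probe sets, threshold 0.05), with 4 residual degrees of freedom, or 2 with the block.

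Deviations from the group means of same-numbered arrays correlated across genes at 0.62, 0.41 and 0.44, all above 0.1, which pairs the arrays by the limit set. Replicates 2 and 3 of opposite groups correlated as well (0.48 and 0.39). Deviations within a group cancel out, so replicates 2 and 3 move together where replicate 1 stands apart. The check therefore shows a replicate 1 effect and cannot match replicates 2 and 3 between the groups. The labels state no shared day. Members, lists and the arrays doubted were chosen with earlier results of these data known. Named were all members and, of each other list, those calls with the largest differences (at most 4), or where there were none its largest difference, plus the 3 genes most like each of the 3 tubulins with the largest differences. Other genes are named as examples of a list or markers. Promoter sequences were taken from RefSeq tables, and their strand was checked: in minus-strand genes forward TATAAA lay 16 to 40 bases before the start 323 times, against 108 times 161 to 185 bases before it.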

Additional observations from a re-analysis of the deposited data

How the results depend on the processing

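Tuba8 kept its direction under all 15 alternatives to the gene fit, between −0.97 and −0.80 on the log2 scale. In both of its probe sets all NCOR1-LYN arrays lay below all controls. Leaving out arrays, changing the offset or averaging the probe sets therefore could not reverse the direction. Tuba8 passed the threshold with the replicate block (0.824% of all genes did), with probe sets averaged (0.0641%) and without both replicate 1 arrays (6.82%). In the other 12 it did not pass. As these arrays chose the members, these passes are a description and support nothing. The replicate block, the fit without intensity trend and both changes of the filter on dim genes cannot alter a log2 difference. Stability under these settings, for Tuba8 as for the others, was fixed in advance. With them included, 117 of 119 recomputed differences of the 8 tubulin genes moved by less than 1 SD between replicates. The exceptions were Tuba8 (−0.80) and Tubb2a (0.45), both without both replicate 1 arrays. For Tuba8 that shift was 0.087 against an SD of 0.085, and averaging its probe sets moved it by 0.083, so these shifts are alike in size. The direction of Tuba4a, Tubb2a, Tubb3, Tubb4b and Tuba1a, none of them past the threshold with all arrays, changed when single arrays were left out or under other settings. Over all genes, the count past the threshold of 9 became 1 without the filter on dim genes, 1 with the filter at the 60th percentile, 90 with the replicate block and 744 without both replicate 1 arrays. Leaving out single arrays gave 0 to 15. Over probe sets, the count of 7 became 1, 3, 152 and 926 in the same order, 4 with quantile normalization, and 0 to 12 without single arrays. The replicate block moved no tubulin call other than that of Tuba8. In limma fits without NCOR1-LYN 2 or 3 or control 2 or 3, which gave 0 genes, 345 to 408 genes had an unadjusted p under 0.05. The causes of these changes in count were not tested. Dim probe sets, such as those of Tubb3 and the second ones of Tubb2a and Tubb6, lie near background and limit what can be said of these isotypes.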
